A study of Mus musculus with 6 samples.

Results

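The genes described here are 34 genes of cholesterol synthesis, sterol sensing, uptake and efflux. With earlier results of the data known, these 34 genes were chosen by name for their known roles. Of these, 31 had at least 1 probe set (a group of short probes for 1 transcript) that the array annotation pairs with that gene alone, among 18194 such genes in all, and they were read by 68 probe sets. Acat2, Soat1 and Soat2 were not analysed here. The values come from Affymetrix expression arrays of liver RNA, as log2 expression values made with RMA, 1 array per mouse. The arrays covered 3 mice of B6.C3H-6T and 3 mice of C57BL/6J, all females of 8 weeks on a chow diet. B6.C3H-6T is a congenic strain, that is, a C57BL/6J mouse with a stretch of C3H DNA bred in on chromosome 6, and the title of the series describes it as low in serum IGF-1. It is an inbred line with a segment that holds many genes, so a difference between the strains is not assigned to a single gene. None of the 31 genes lies on chromosome 6 (0 of 31, against 992 of 18032 genes whose chromosome is known).

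Liver makes cholesterol from acetyl-CoA by the mevalonate pathway, in which isoprenoid units are joined to squalene and squalene is closed and trimmed to the sterol. Most of these enzyme genes are targets of the transcription factor SREBP-2, which leaves the endoplasmic reticulum with its escort SCAP when membrane sterol is low and is held there by the INSIG proteins when sterol is plentiful. The related factor SREBP-1 acts more on genes of fatty acid synthesis, and the liver X receptors, which sense oxysterols, turn on the efflux transporters. Cholesterol leaves hepatocytes as lipoprotein, as bile acid, or as free sterol in bile.

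All values below are on the log2 scale, so a difference of 1 is a 2-fold change. A difference is the B6.C3H-6T mean less the C57BL/6J mean, with ± SE from limma, 3 mice per strain, and adjusted p-values cover all 18194 genes. Array medians lay between 6.07 and 6.11, and the correlation between arrays over all probe sets was 0.994 to 0.997. On the first principal component, which took 37.3% of the variance, the mouse farthest out was B6.C3H-6T replicate 2 (27.3), against 11.8 and 2.29 for the other B6.C3H-6T mice and -16.7 to -10.3 for the C57BL/6J mice. For the genes named, a difference above 0.1 in size that moved by over 1.5 times without that mouse is given without it too. The mean of 8 hepatocyte markers was 13.502 to 13.586 in B6.C3H-6T and 13.388 to 13.496 in C57BL/6J, so it was slightly higher in every B6.C3H-6T mouse. Of the 8, 3 were higher without overlap (37.5%, against 10.3% of all genes), and 0 passed an adjusted p of 0.05 in limma. Markers of pancreas and adrenal cortex averaged 5.94 to 6.42 in B6.C3H-6T and 5.81 to 6.43 in C57BL/6J.

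The comparison of the strains asked which of the sterol genes differ in B6.C3H-6T liver. None of the 31 passed an adjusted p of 0.05 in limma, where 13 of all 18194 genes did (0.0715%), and the lowest adjusted p among the 31 was 0.249, for the acetoacetyl-CoA synthetase gene Aacs. At an unadjusted p under 0.05, 4 genes were higher in B6.C3H-6T, Aacs, Dhcr7, Sc5d and Pmvk, and 2 were lower, Hsd17b7 and Abcg1. These are shares of 12.9% and 6.45%, beside 6.34% of all genes higher and 5.80% lower at the same threshold. Leaving out B6.C3H-6T replicate 1 turned the 4 higher into 7, and leaving out B6.C3H-6T replicate 2, B6.C3H-6T replicate 3 or C57BL/6J replicate 3 turned them into 1. Centring the arrays gave 2 higher. The 2 lower became 4 without B6.C3H-6T replicate 3, 0 without C57BL/6J replicate 2 and 1 without C57BL/6J replicate 3. In limma without moderated variances the counts were 2 higher and 0 lower, and 0 of the 31 passed after adjustment.

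The median difference of the 31 was -0.03, beside 0.02 over all genes. Differences ran from -0.27 for Hsd17b7 to 0.63 for Aacs, the only one of them larger than 0.5 in size. The 95% interval lay between -1 and 1 for 30 of the 31 genes, all but Aacs, and between -0.5 and 0.5 for 21 of them. A 2-fold shift therefore lay outside the interval of those 30 genes, and a 1.41-fold shift outside that of the 21. The upper bound of Aacs lay just above 1.

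**Figure D1:**
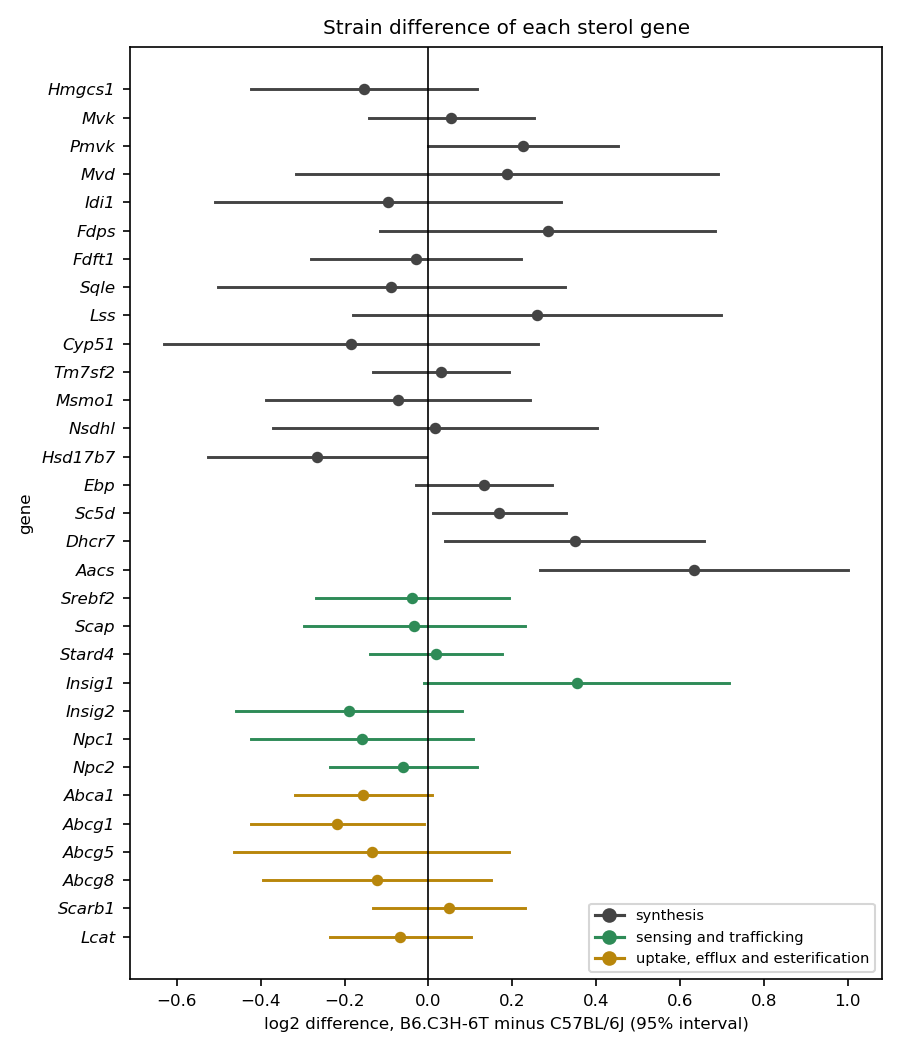
Log2 difference of each of the 31 sterol genes, B6.C3H-6T minus C57BL/6J, as points with 95% intervals from limma (3 mice per strain), coloured by role. Aacs is farthest to the right at 0.63, and most intervals include 0.

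Among the synthesis genes 11 of 18 were higher and 7 lower, with a median of 0.04. Of all 18194 genes, 10204 were higher and 7990 lower. The entry step of cytosolic acetyl units holds Aacs, whose enzyme activates the ketone body acetoacetate for lipid synthesis. Aacs had log2 values of 8.33, 9.09 and 8.87 in the B6.C3H-6T mice, against 8.12, 8.16 and 8.11 in the C57BL/6J mice. All B6.C3H-6T mice were above all C57BL/6J mice, and the spread lay on the B6.C3H-6T side. The difference was 0.63 ± 0.16, or 1.55-fold (unadjusted p = 0.00362, adjusted p = 0.249, limma). Both other probe sets of Aacs were higher without overlap too, by 0.58 ± 0.20 and 0.25 ± 0.07. Without B6.C3H-6T replicate 1 the difference was 0.85 and passed (adjusted p = 0.0266), and with B6.C3H-6T replicate 2 dropped instead it was 0.47. Over all alternatives its adjusted p ran from 0.0266 to 0.580.

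Hmgcs1 encodes the synthase of HMG-CoA. It had values of 12.67, 12.67 and 13.10 in B6.C3H-6T and of 12.87, 13.07 and 12.96 in C57BL/6J, so that B6.C3H-6T mice lay both below and above the others. The difference was -0.15 ± 0.12 (adjusted p = 0.634), and -0.08 without B6.C3H-6T replicate 2. Its 4 other probe sets were lower as well, by -0.50 to -0.06, and the dimmest of them had an unadjusted p of 0.0133.

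Pmvk, the phosphomevalonate kinase gene, had values of 9.39, 9.78 and 9.58 in B6.C3H-6T and of 9.37, 9.27 and 9.43 in C57BL/6J. Its strains overlapped at 1 mouse, and the difference of 0.23 ± 0.10 (adjusted p = 0.412) became 0.13 without B6.C3H-6T replicate 2. The neighbouring kinase gene Mvk differed by 0.06 ± 0.09, the mevalonate diphosphate decarboxylase gene Mvd by 0.19 ± 0.22 (0.08 without that mouse) and the isopentenyl diphosphate isomerase gene Idi1 by -0.10 ± 0.18.

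Fdps, which encodes farnesyl diphosphate synthase at the branch point of the pathway, had values of 11.62, 12.44 and 12.18 in B6.C3H-6T and of 11.67, 11.82 and 11.89 in C57BL/6J. Replicates 2 and 3 of B6.C3H-6T were above every C57BL/6J mouse and replicate 1 was below every one. The difference was 0.28 ± 0.18 (adjusted p = 0.548), and 0.11 without B6.C3H-6T replicate 2. Fdft1, the squalene synthase gene, differed by -0.03 ± 0.11. A dim probe set of Fdft1 was higher by 0.29 ± 0.06 without overlap (unadjusted p = 0.00109, adjusted p over all probe sets = 0.231), a result that its brighter probe sets did not show.

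Sqle encodes squalene epoxidase, a controlled step of the sterol branch. Its values were 10.003, 10.40 and 10.72 in B6.C3H-6T and 10.14, 10.62 and 10.62 in C57BL/6J. The B6.C3H-6T mice spanned the whole C57BL/6J range, and the difference was -0.09 ± 0.18 with a 95% interval from -0.50 to 0.33. Lss, the gene of the enzyme that closes squalene epoxide to lanosterol, had 9.23, 10.14 and 9.90 in B6.C3H-6T and 9.53, 9.39 and 9.57 in C57BL/6J. Its difference was 0.26 ± 0.19, and 0.07 without B6.C3H-6T replicate 2. Another probe set of Lss differed by -0.00 ± 0.23.

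Cyp51 encodes the demethylase that acts on lanosterol. Its values were 9.67, 10.20 and 10.39 in B6.C3H-6T and 9.91, 10.51 and 10.39 in C57BL/6J, with a difference of -0.18 ± 0.20 that its 2 other probe sets shared in sign. Later steps went in both directions. Dhcr7, whose enzyme makes cholesterol from its 7-dehydro precursor, had 10.66, 11.28 and 10.94 in B6.C3H-6T and 10.52, 10.68 and 10.63 in C57BL/6J. A single B6.C3H-6T mouse lay inside the C57BL/6J range, and the difference of 0.35 ± 0.14 (adjusted p = 0.377) became 0.19 without B6.C3H-6T replicate 2.

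Sc5d, a sterol desaturase gene of the same late stretch, had 12.61, 12.55 and 12.53 in B6.C3H-6T and 12.46, 12.44 and 12.29 in C57BL/6J. The strains did not overlap at this probe set, but the difference was small, 0.17 ± 0.07 (adjusted p = 0.389), and its 2 other probe sets differed by 0.00 and -0.10. Ebp, the sterol isomerase gene, had 12.06, 12.15 and 11.98 in B6.C3H-6T and 11.91, 12.00 and 11.88 in C57BL/6J, a difference of 0.13 ± 0.07. Hsd17b7, whose enzyme reduces a sterol ketone in the removal of the methyl groups, pointed the other way.

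Hsd17b7 had 9.15, 9.13 and 9.53 in B6.C3H-6T and 9.41, 9.53 and 9.65 in C57BL/6J. Replicates 1 and 2 of B6.C3H-6T were below all C57BL/6J mice and replicate 3 was not. The difference was -0.27 ± 0.11 (adjusted p = 0.404), and 2 of its 3 other probe sets had the same sign. The remaining demethylation and reduction genes differed by -0.07 ± 0.14 for Msmo1, 0.02 ± 0.17 for Nsdhl and 0.03 ± 0.07 for Tm7sf2. Another, dimmer probe set of Msmo1 was lower without overlap, by -0.38 ± 0.11 (unadjusted p = 0.00768, adjusted p over all probe sets = 0.330).

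**Figure D2:**
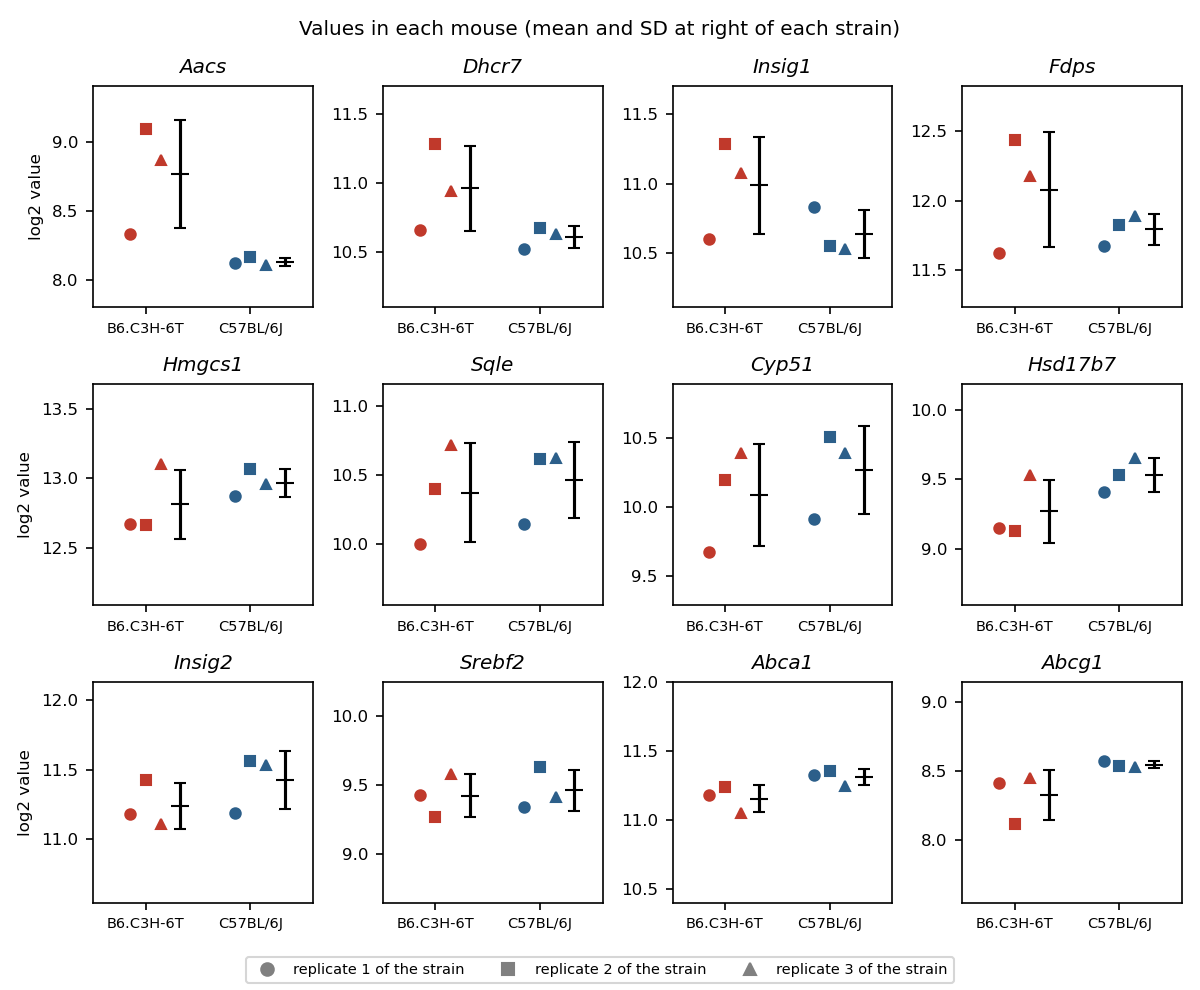
Log2 values of 12 sterol genes in each mouse, with B6.C3H-6T left of C57BL/6J, 1 symbol per mouse, and the mean ± SD of 3 mice beside each strain. Every panel spans the same height of the log2 scale; Aacs, Abca1 and Abcg1 show strains that do not overlap, and the other 9 genes show strains that do.

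The synthesis genes differed more between the B6.C3H-6T mice than between the C57BL/6J mice. The SD over 3 mice had a median of 0.31 in B6.C3H-6T and 0.11 in C57BL/6J for these 18 genes, beside 0.085 in B6.C3H-6T and 0.086 in C57BL/6J for all genes. It was larger in B6.C3H-6T for 16 of the 18 (88.9%, against 49.0% of all genes), and above 0.3 for 10 of them in B6.C3H-6T (55.6%, against 1.93% of all genes) but for 1 of them, Cyp51, in C57BL/6J (5.56%, against 1.58% of all genes). With B6.C3H-6T replicate 1 left out the SD was larger in B6.C3H-6T for 11 of the 18 (42.0% of all genes), with a median of 0.15. With B6.C3H-6T replicate 3 left out it was larger for 10 (40.7% of all genes), with a median of 0.27. Leaving out any one of the other 4 mice gave 15 of 18. The share of all genes was then 41.9% without B6.C3H-6T replicate 2. It was 56.8%, 59.2% and 55.0% without C57BL/6J replicates 1, 2 and 3 in turn. Genes of fatty acid synthesis, described at the end, had a wider spread still, with a median SD of 0.60 in B6.C3H-6T and 0.18 in C57BL/6J over 14 genes. These counts were made after the values were seen and carry no test. The 18 genes of 1 mouse are not independent of each other. Shares and SDs of all genes were not matched for brightness. The synthesis genes averaged 10.34 to 10.76 over the 6 mice, and all genes 7.10 to 7.15.

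The order of the mice was shared by many of the genes. B6.C3H-6T replicate 1 was the lowest of its strain at 13 of the 18 synthesis genes, against 27.1% of all genes, and lay below every C57BL/6J mouse at 11 of them, against 21.5% of all genes. Replicate 3 lay above every C57BL/6J mouse at 13 of the 18 (26.2% of all genes) and replicate 2 at 11 (32.1% of all genes). The median deviation from the C57BL/6J mean was -0.24 for replicate 1, 0.12 for replicate 2 and 0.19 for replicate 3.

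Mvd showed the widest spread, with values of 7.81, 8.64 and 8.83 in B6.C3H-6T against 8.10, 8.33 and 8.29 in C57BL/6J. The synthesis genes also split by which B6.C3H-6T mouse was highest. Replicate 3 was the highest of its strain at 9 of them, against 29.1% of all genes, among them Hmgcs1, Idi1, Sqle, Cyp51, Msmo1 and Hsd17b7. Replicate 2 was highest at 8, against 30.8% of all genes, among them Aacs, Pmvk, Fdps, Lss and Dhcr7.

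**Figure D3:**
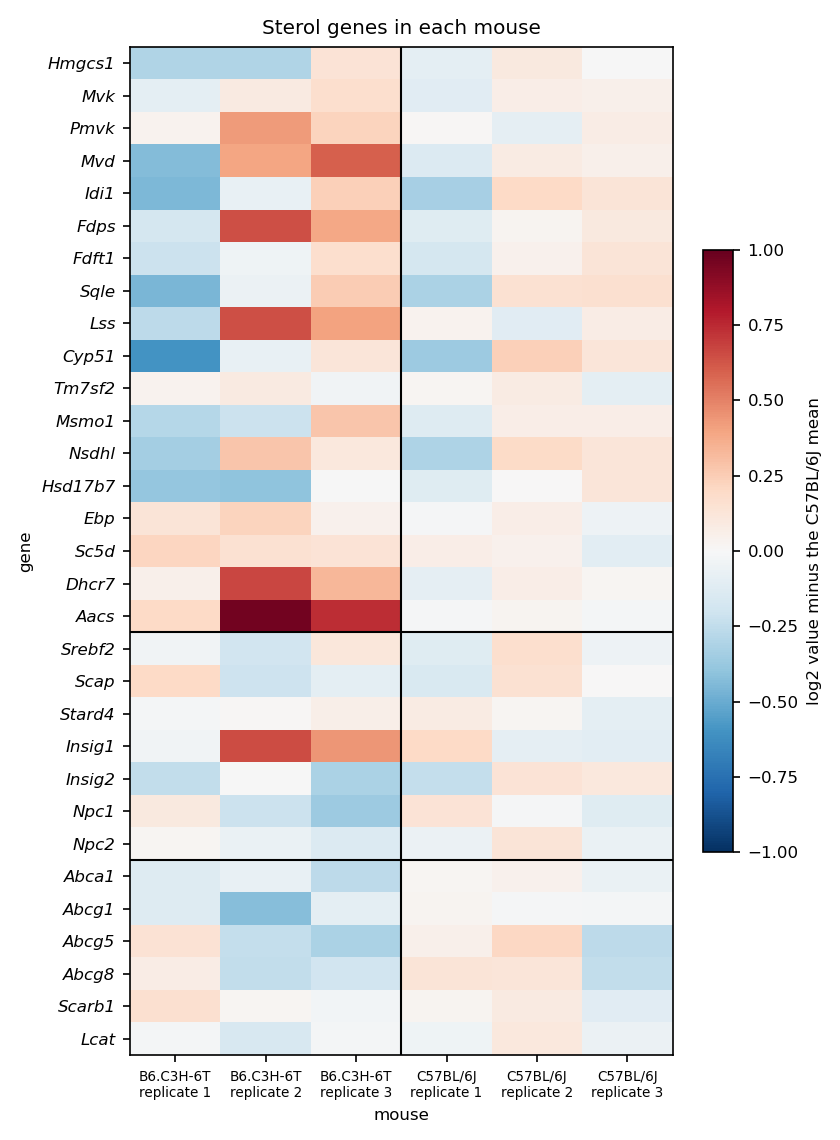
Heat map of the 31 sterol genes (rows, grouped by role) in the 6 mice (columns, B6.C3H-6T first), coloured by the log2 value minus the mean of the C57BL/6J mice, from -1 to 1. B6.C3H-6T replicate 1 is below the C57BL/6J mean at most synthesis genes, while replicates 2 and 3 are above it at many.

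**Figure D4:**
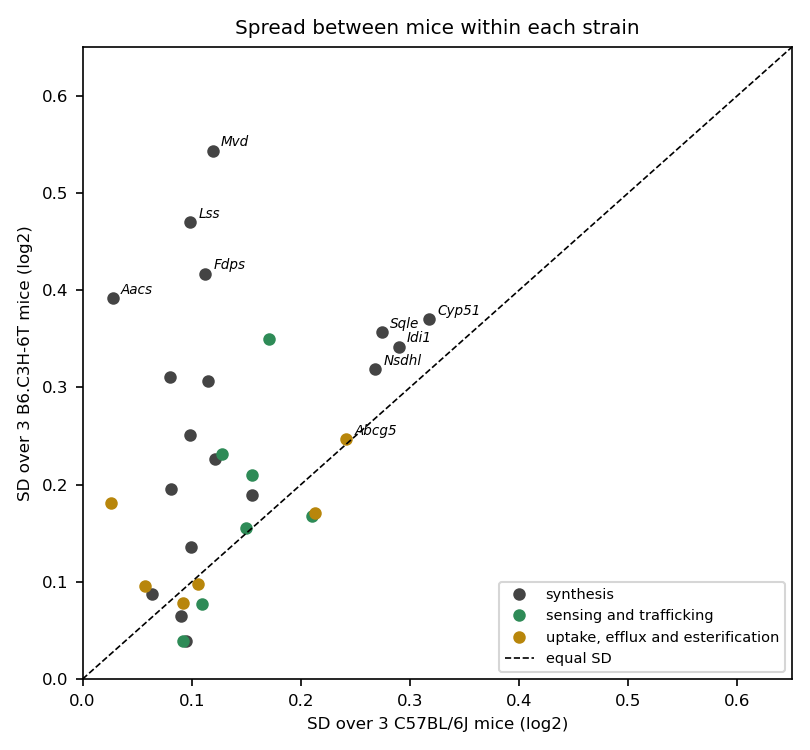
SD of each sterol gene over the 3 B6.C3H-6T mice (vertical axis) against the SD over the 3 C57BL/6J mice (horizontal axis), both in log2 units, with a line of equal SD. Of the 18 synthesis genes 16 lie above the line, with Mvd at the top.

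Promoters of the sterol genes of every role were read for 3 short motifs. Whether the motifs go with the order of the mice was not tested. SREBP binds sterol regulatory elements next to sites of the factors NF-Y (CCAAT box) and Sp1 (GC box). In RefSeq promoter windows of assembly GRCm38.p6, from 250 bases before to 50 bases after a start, 24 of the 31 genes had an entry. Both strands were searched, each motif on its own. The sterol element was searched in the form TCACNCCAC only, which was found in 1 of the 24 genes, Hmgcs1. It was found in 1.44% of all 27025 genes with a window. Other forms of the element were not searched, so a gene without this match may still hold one. CCAAT was found in 21 of the 24 (87.5%) and in 41.1% of all genes, and GGGCGG in 19 of the 24 (79.2%) and in 38.2% of all genes. These are matches of letters, not measured binding.

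The stretches below show these letters for every sterol gene with an entry that had an unadjusted p under 0.05 (the first 5), for Hmgcs1 with its sterol element, and for every other synthesis gene with an entry and an SD above 0.3 in B6.C3H-6T. Each is 80 bases, 5′ to 3′ on the strand of the gene and ahead of an annotated start, with every match to the 3 motifs on either strand in capitals (ATTGG and CCGCCC are CCAAT and GGGCGG on the other strand), and no matches overlap within them. Aacs, whose window held none of the 3 motifs, is shown by the 80 bases next to the start; Hmgcs1 is shown round its sterol element, and the others round the CCAAT match nearest to the start.
Aacs, chr5:125475793-125475872, plus strand: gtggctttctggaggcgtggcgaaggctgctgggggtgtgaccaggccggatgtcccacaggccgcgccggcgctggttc
Dhcr7, chr7:143830127-143830206, plus strand: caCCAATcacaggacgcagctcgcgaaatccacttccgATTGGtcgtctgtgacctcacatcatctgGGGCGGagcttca
Sc5d, chr9:42264301-42264380, minus strand: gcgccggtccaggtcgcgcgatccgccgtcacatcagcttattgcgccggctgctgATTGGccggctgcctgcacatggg
Hsd17b7, chr1:169969206-169969285, minus strand: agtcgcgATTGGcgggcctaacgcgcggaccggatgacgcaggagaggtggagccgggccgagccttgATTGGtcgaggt
Pmvk, chr3:89454367-89454446, plus strand: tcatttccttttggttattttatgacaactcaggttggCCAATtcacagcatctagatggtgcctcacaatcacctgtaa
Hmgcs1, chr13:119690176-119690255, plus strand: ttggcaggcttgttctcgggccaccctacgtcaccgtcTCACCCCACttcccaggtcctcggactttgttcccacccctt
Mvd, chr8:122443423-122443502, minus strand: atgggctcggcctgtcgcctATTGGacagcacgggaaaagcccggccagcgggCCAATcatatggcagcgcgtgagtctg
Lss, chr10:76531505-76531584, plus strand: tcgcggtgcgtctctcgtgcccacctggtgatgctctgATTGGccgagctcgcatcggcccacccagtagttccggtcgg
Cyp51, chr5:4104698-4104777, minus strand: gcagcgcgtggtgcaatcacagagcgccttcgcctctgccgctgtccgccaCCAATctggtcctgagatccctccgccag
Idi1, chr13:8885526-8885605, plus strand: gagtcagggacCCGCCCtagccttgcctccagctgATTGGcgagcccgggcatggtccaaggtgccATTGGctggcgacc
Nsdhl, chrX:72918441-72918520, plus strand: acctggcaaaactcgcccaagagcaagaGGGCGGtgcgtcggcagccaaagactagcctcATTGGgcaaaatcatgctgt
Msmo1, chr8:64733592-64733671, minus strand: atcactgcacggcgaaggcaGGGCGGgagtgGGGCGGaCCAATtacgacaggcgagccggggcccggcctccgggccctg

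Dhcr7 has 3 annotated starts, and its stretch belongs to one that lies inside the gene. Pmvk has 2. For these genes a start with a CCAAT match ahead of it was preferred, and then the start nearest to the 5′ end of the gene. Their CCAAT matches were thus part of how the stretches were chosen. Of these 12 stretches, those of Dhcr7, Hsd17b7, Mvd and Idi1 hold 2 matches to CCAAT each, and that of Msmo1 holds 2 to GGGCGG. Aacs, with the largest difference between the strains among the 31, had no match in its window, which says only that these letters are not there.

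Genes of sterol sensing and trafficking had 2 of 7 members higher and 5 lower, beside 7990 of all 18194 genes lower. The median was -0.04, and 0 of the 7 had an unadjusted p under 0.05 in limma, beside 12.1% of all genes in either direction. Srebf2, which encodes SREBP-2, had values of 9.43, 9.27 and 9.58 in B6.C3H-6T and of 9.34, 9.63 and 9.41 in C57BL/6J. The strains covered nearly the same range, and the difference was -0.04 ± 0.10 with a 95% interval from -0.27 to 0.19. Scap, the escort of SREBP, had 11.18, 10.78 and 10.88 in B6.C3H-6T and 10.83, 11.14 and 10.98 in C57BL/6J, a difference of -0.03 ± 0.12.

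The INSIG genes lay on opposite sides of 0. Insig1, itself a target of SREBP, had 10.60, 11.29 and 11.08 in B6.C3H-6T and 10.83, 10.55 and 10.53 in C57BL/6J, with 2 B6.C3H-6T mice above all C57BL/6J mice. Its difference was 0.35 ± 0.16 (adjusted p = 0.423), and 0.21 without B6.C3H-6T replicate 2. Over all mice left out in turn, it ran from 0.21 to 0.55. Insig2, which in liver has a transcript that insulin lowers, had 11.18, 11.43 and 11.11 in B6.C3H-6T and 11.18, 11.57 and 11.53 in C57BL/6J. Its difference was -0.19 ± 0.12 (adjusted p = 0.550). Both other probe sets of Insig2 were lower at an unadjusted p under 0.05, by -0.28 ± 0.10 without overlap and by -0.23 ± 0.09 with overlap. The difference between Insig1 and Insig2 was not tested.

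Npc1, the gene of the lysosomal membrane protein that exports cholesterol, had 9.76, 9.45 and 9.30 in B6.C3H-6T and 9.80, 9.65 and 9.54 in C57BL/6J, a difference of -0.16 ± 0.12 with overlap. Its soluble partner gene Npc2 differed by -0.06 ± 0.08. Stard4, which encodes a sterol carrier of the cytosol, differed by 0.02 ± 0.07, and its interval ran from -0.14 to 0.18.

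Among the genes of uptake, efflux and esterification 1 of 6 was higher and 5 were lower, beside 7990 of all 18194 genes lower. The median was -0.13. Abca1 encodes the transporter that loads cholesterol onto apolipoprotein A-I to form HDL. It had 11.18, 11.24 and 11.05 in B6.C3H-6T and 11.33, 11.36 and 11.25 in C57BL/6J, without overlap but by a narrow margin. The difference was -0.16 ± 0.07 (adjusted p = 0.432), and its 2 other probe sets had the same sign.

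Abcg1, a transporter gene of sterol export to HDL that macrophages also use, had 8.42, 8.12 and 8.45 in B6.C3H-6T and 8.58, 8.54 and 8.53 in C57BL/6J. All B6.C3H-6T mice were below all C57BL/6J mice, and replicate 2 was the lowest. The difference was -0.22 ± 0.09 (adjusted p = 0.391) and -0.11 without that mouse, and the other probe set of the gene differed by 0.13 ± 0.07. Abca1 and Abcg1 were the 2 of 31 genes that were lower without overlap (6.45%, against 7.49% of all genes), and Aacs and Sc5d the 2 that were higher without overlap (6.45%, against 10.3% of all genes).

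Markers of Kupffer cells, the resident macrophages of liver, were on the same side of 0 as Abca1 and Abcg1. All 8 of them were lower in B6.C3H-6T, beside 7990 of all 18194 genes. At an unadjusted p under 0.05, 7 were lower (87.5%, against 5.80% of all genes), and 0 passed after adjustment in limma. The marker list was chosen with earlier results of these data known, so this share is not an independent test. The mean of the 8 was 9.23 to 9.47 in B6.C3H-6T and 9.57 to 9.85 in C57BL/6J. The lowest mouse was B6.C3H-6T replicate 2, which was the lowest at Abcg1 too but the highest of its strain at Abca1. The 7 became 2 without that mouse, 1 without C57BL/6J replicate 2 and 4 without C57BL/6J replicate 3. Clec4f, a marker of Kupffer cells alone in mouse liver, differed by -0.26 ± 0.11, and by -0.15 without B6.C3H-6T replicate 2. In RNA of whole liver, fewer cells of a type and less RNA per cell cannot be told apart, and the part of macrophage RNA in the values of Abca1 and Abcg1 was not tested.

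Abcg5 and Abcg8 encode the partner subunits of the transporter that moves sterol into bile, and they are read from neighbouring starts. Abcg5 had 11.03, 10.65 and 10.57 in B6.C3H-6T and 10.94, 11.10 and 10.62 in C57BL/6J. Abcg8 had 9.82, 9.50 and 9.55 in B6.C3H-6T and 9.87, 9.86 and 9.50 in C57BL/6J. In both genes the strains overlapped and B6.C3H-6T replicate 1 was the highest of its strain, and the differences were -0.14 ± 0.15 for Abcg5 and -0.12 ± 0.12 for Abcg8. Without B6.C3H-6T replicate 2 they were -0.09 for Abcg5 and -0.06 for Abcg8. Scarb1, the gene of the HDL receptor SR-BI, had 11.34, 11.20 and 11.15 in B6.C3H-6T and 11.21, 11.27 and 11.06 in C57BL/6J, a difference of 0.05 ± 0.08. Lcat, which encodes the plasma enzyme that esterifies cholesterol on HDL, differed by -0.07 ± 0.07.

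**Figure D5:**
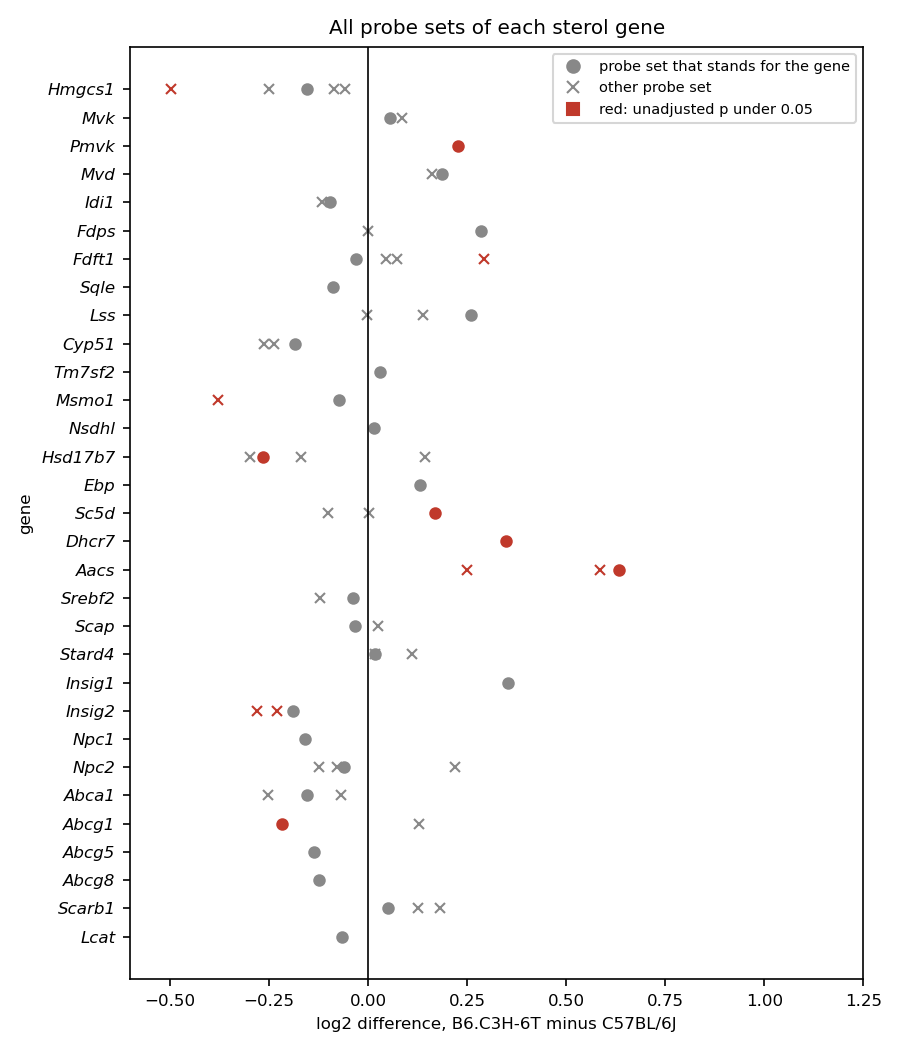
Log2 difference, B6.C3H-6T minus C57BL/6J, of all 68 probe sets of the 31 sterol genes. Circles are the probe sets that stand for the genes, crosses the others, and red marks an unadjusted p under 0.05; the 3 probe sets of Aacs are all red and to the right of 0.

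More than 1 probe set was present for 20 of the 31 genes. At Aacs and Insig2 every probe set had the same sign and at least 2 had an unadjusted p under 0.05, while at Fdft1, Lss, Hsd17b7, Sc5d, Scap, Npc2 and Abcg1 probe sets differed in sign. The values of Dhcr7, Pmvk and Insig1 rest on 1 probe set each.

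Other genes of the pathway were taken from lists of their own. Of 16 measured genes of SREBP processing and sterol sensing, 0 passed after adjustment in limma. At an unadjusted p under 0.05, 1 was higher (6.25%, against 6.34% of all genes). That gene, Srebf1, encodes SREBP-1 and was higher by 0.70 ± 0.28. Srebf1 had 10.95, 12.03 and 10.85 in B6.C3H-6T and 10.86, 10.48 and 10.38 in C57BL/6J, and replicate 2 stood far above the other mice. Its difference was 0.33 without that mouse, and at an unadjusted p above 0.05 without C57BL/6J replicate 2 or 3. Mbtps1, the gene of a protease that cuts SREBP, differed by -0.16 ± 0.08, the coat protein gene Sec23a by -0.10 ± 0.06 and Tmem97 by 0.10 ± 0.09 (0.04 without B6.C3H-6T replicate 2).

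Of 24 measured genes of sterol transfer and lipoprotein uptake, 3 were higher and 3 lower at an unadjusted p under 0.05. These are 12.5% each, against 6.34% of all genes higher and 5.80% lower, and 0 passed after adjustment in limma. Nceh1, a cholesteryl ester hydrolase gene known from macrophages, was lower by -0.52 ± 0.15 (-0.32 without B6.C3H-6T replicate 2), and Pdzk1, which encodes a scaffold of SR-BI, by -0.25 ± 0.08. The lipoprotein receptor gene Vldlr was higher by 0.25 ± 0.08 and the sterol carrier gene Stard5 by 0.26 ± 0.08. Of 12 measured liver X receptor genes and targets, which include the 4 efflux transporters above, 2 were higher and 2 lower at an unadjusted p under 0.05. These are 16.7% each, against the same shares of all genes. The 2 lower became 0 without C57BL/6J replicate 1, and 1 when replicate 2 of either strain was dropped, and the 2 higher became 1 without C57BL/6J replicate 2 or 3. Scd1, a desaturase gene, was higher by 0.33 ± 0.10 and Pltp, the gene of the phospholipid transfer protein, lower by -0.41 ± 0.15, and by -0.26 and no longer at that threshold without B6.C3H-6T replicate 2; Srebf1 and Abcg1 are the other two.

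Fatty acid synthesis genes stood higher in the same livers. All 14 of them were higher in B6.C3H-6T, beside 10204 of all 18194 genes. The median of the 14 was 0.69, beside 0.04 for the 18 cholesterol synthesis genes. An unadjusted p under 0.05 was reached by 12 (85.7%, against 6.34% of all genes higher), although 0 passed after adjustment in limma. This list was chosen with earlier results of these data known, so its share is not an independent test. Without B6.C3H-6T replicate 2 the median was 0.35 and 11 were at that threshold, and without C57BL/6J replicate 3 only 7 were. Those of lowest p were Lpin1 (1.22 ± 0.28), Acss2 (0.71 ± 0.17), Acacb (0.54 ± 0.14, and 0.36 without B6.C3H-6T replicate 2) and Scd1. Their mean was 10.91, 11.78 and 10.91 in the B6.C3H-6T mice and 10.67, 10.46 and 10.36 in the C57BL/6J mice. That of the cholesterol synthesis genes was 10.34, 10.71 and 10.76 in the B6.C3H-6T mice and 10.40, 10.60 and 10.58 in the C57BL/6J mice. For fatty acid synthesis replicate 2 stood alone at the top and replicates 1 and 3 were level, while for cholesterol synthesis replicates 2 and 3 were level and replicate 1 was low. The difference between these lists was not tested.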

How the data were processed

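Liver RNA of 6 mice was measured on Affymetrix arrays. The authors deposited 1 log2 value per array for each probe set, which the submitters' processing notes credit to RMA (affy package); its version is not given in the sources used here. Of 45101 probe sets, 64 controls were left out and 45037 entered the test. The platform annotation, with RefSeq symbols, paired 34945 of them with 1 gene. The probe set of highest mean over 6 arrays stood for each gene. The strain difference was fitted in R 4.3.3 with limma 3.58.1 (eBayes after lmFit over all probe sets, no covariate, no filter), with Benjamini-Hochberg adjustment over 18194 genes. The fit was tested on simulated data. The sterol genes and other lists were chosen with earlier results of these data known. Genes given in every mouse are the 14 sterol genes of lowest p and 12 fixed ones, and Mvd and Srebf1, chosen after their values were seen; of other lists the 4 genes of lowest p are named, and Clec4f was added. Promoter windows are from RefSeq (GRCm38.p6). The sources do not say whether mice of a strain were littermates. The number of arrays limits the precision. Alternatives were 2 other normalizations, a filter on dim probe sets, 2 other choices of probe set, 2 variance models, adjustment over all probe sets, and leaving out each mouse, which was also done, after seeing the data, for the spread between mice and the other lists.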

Additional observations from a re-analysis of the deposited data

How the results depend on the processing

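Under 14 alternatives, 405 of 434 values of single sterol genes kept their direction and stayed short of the adjusted threshold, and 16 of the 31 genes kept their direction throughout. The exception past the threshold was Aacs without B6.C3H-6T replicate 1 (0.85, adjusted p = 0.0266). Direction changed for Fdft1 with the mean of all probe sets (0.095), for Lss when probe sets ending in _x_at or _s_at were dropped (-0.0015), and with arrays centred on their median for Nsdhl (-0.011) and Stard4 (-0.0071). Leaving out 1 mouse changed the direction of 14 genes, none of them at an unadjusted p under 0.05, whose differences then ran from -0.0022 to 0.13 for Mvk, -0.016 to 0.50 for Mvd, -0.26 to 0.080 for Idi1, -0.13 to 0.062 for Fdft1, -0.26 to 0.097 for Sqle, -0.36 to 0.022 for Cyp51, -0.019 to 0.069 for Tm7sf2, -0.25 to 0.032 for Msmo1, -0.14 to 0.19 for Nsdhl, -0.12 to 0.046 for Srebf2, -0.15 to 0.052 for Scap, -0.031 to 0.060 for Stard4, -0.10 to 0.0027 for Npc2 and -0.0086 to 0.094 for Scarb1. The count of all genes past the threshold, 13, was 6 to 15 without 1 mouse and 0 without moderated variances (1746 at an unadjusted p under 0.05). Of the sterol genes at an unadjusted p under 0.05, the 2 lower became 1 with quantile normalization, 1 when probe sets ending in _x_at or _s_at were dropped, 0 without moderated variances and 0 to 4 without 1 mouse. The 4 higher became 2 with centred arrays, 2 without moderated variances and 1 to 7 without 1 mouse. With the mean of all probe sets, 1 gene was lower and 1 higher without overlap, and without 1 mouse 2 to 5 were lower and 2 to 9 higher. With fewer mice in a strain, an absence of overlap is easier to reach for any gene. The matching shares of all genes without 1 mouse are not given here, so these higher counts cannot be read as particular to the sterol genes. The 16 synthesis genes with a larger SD in B6.C3H-6T became 10 to 15 without 1 mouse (40.7% to 59.2% of all genes), a check chosen after seeing the data. The cause was not tested. No paired analysis was possible because replicate numbers only name the mice and the labels give no number that pairs mice across strains.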

Other observations

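Side branches of the mevalonate pathway feed protein prenylation, dolichol, ubiquinone and transfer RNA. Their genes were lower in B6.C3H-6T at 13 of 14 measured members, beside 7990 of all 18194 genes. The median was -0.03, and 0 passed an adjusted p of 0.05 in limma. Several of the 13 differences were near 0, such as -0.003 for Dhdds and -0.006 for Ggps1. Without B6.C3H-6T replicate 3, C57BL/6J replicate 1 or C57BL/6J replicate 2, 4 of the 14 were higher. At an unadjusted p under 0.05, 3 were lower (21.4%, against 5.80% of all genes), and 1 without B6.C3H-6T replicate 2. Lower without overlap were 4 (28.6%, against 7.49% of all genes). These were the prenyltransferase subunit genes Rabggtb (-0.31 ± 0.09) and Fnta (-0.17 ± 0.07), the transfer RNA isopentenyltransferase gene Trit1 (-0.26 ± 0.09) and the methyltransferase gene Icmt (-0.15 ± 0.07). Icmt had an unadjusted p of 0.0631 in limma.

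Of 15 genes that turn sterol into bile acids and oxysterols, 4 were higher and 2 lower at an unadjusted p under 0.05. These are shares of 26.7% and 13.3%, against 6.34% of all genes higher and 5.80% lower, and 0 passed after adjustment in limma. The steroid reductase gene Akr1d1 was higher by 0.43 ± 0.13 (0.27 without B6.C3H-6T replicate 2) and the conjugating enzyme gene Baat by 0.15 ± 0.06. The peroxisomal gene Hsd17b4 was lower by -0.21 ± 0.07 and the oxysterol hydroxylase gene Cyp7b1 by -0.23 ± 0.08. The 4 higher became 1 without B6.C3H-6T replicate 2, and dropping B6.C3H-6T replicate 1 or C57BL/6J replicate 2 or 3 gave 2. The 2 lower became 0 without C57BL/6J replicate 2, and dropping replicate 3 of either strain gave 1.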
